A study of Mus musculus with 10 samples.

Results

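The replication-dependent histone genes were taken as the GENCODE M21 protein-coding genes whose symbol begins with Hist1h, Hist2h, Hist3h or Hist4h, which gave 67 of 21853 genes. They comprised 6 linker histone (H1), 18 H2A, 18 H2B, 12 H3 and 13 H4 genes. The Hist1 cluster on chromosome 13 held 54 of them (mm10, chr13:21715763-23934851), the Hist2 cluster on chromosome 3 held 10 (chr3:96219865-96270132), Hist3 on chromosome 11 held 2 (chr11:58948920-58956830) and Hist4 on chromosome 6 held 1 (chr6:136801553-136804415). A gap of 1487836 bp between neighbouring starts divided Hist1 into a first block of 23 genes and a second block of 31 genes.

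These genes supply the histones that package newly made DNA, and in cycling cells they are transcribed mainly in S phase. Their typical transcripts lack introns and usually end in a conserved stem-loop rather than a poly(A) tail, and the stem-loop is held by SLBP. Some members have longer annotated spans, as Hist1h2be with chr13:23583670-23621124. Transcription is coupled to the cell cycle through NPAT, a target of cyclin E and CDK2, while HINFP binds H4 promoters and POU2F1 binds the octamer element of H2B promoters. Many H2A and H2B genes stand head to head and share the DNA between their starts.

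Accessible DNA was mapped with Tn5 transposase (ATAC-seq) in G1E-ER4 (G1ER) cells, a mouse erythroid line. The line is a Gata1-null G1E subclone that constitutively carries GATA1 fused to the ligand-binding domain of the estrogen receptor, so all groups share this genotype and derive from a single clone. Cells grown with stem cell factor and erythropoietin were sampled at 0 h, without β-estradiol, and after 2, 6, 12 and 24 h in 1e-07 M β-estradiol, which activates the fusion protein. Each time point had 2 libraries of about 50000 cells, and nothing in the labels says whether they came from separate cultures, so every spread and p-value given here describes libraries.

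Each deposited list gives peak summits and a score, the −log10 of the q-value that MACS assigned to the peak in its own library. A gene was counted as listed when a summit lay within 1 kb of the start of a protein-coding transcript, and a gene without one was simply not called, since read depth is unknown. The score was converted to a percentile within its own list, so 100% is the strongest peak of that library. Lists held 10698 to 19859 peaks on the nuclear chromosomes, the smallest at 24 h replicate 2 and the largest at 6 h replicate 2. None of 10 lymphoid, myeloid or non-blood marker genes was listed in any library, whereas 8 of 12 erythroid and progenitor markers were listed at least once. Nfe2, Epor and Tfrc were in all 10 lists, Kit in 9, Lmo2 in 7, Klf1 in 4 and Tal1 in 2. Of the 12, 25% were in all 10 lists and 33.3% in none, against 26.4% and 55.5% of all protein-coding genes. Both α-globin starts (Hba-a1, Hba-a2), Hbb-bt and Gata2 were in no list and Hbb-bs was in 1.

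Sequence between and before the starts is shown for the promoters on which the results below turn, read from GRCm38.p6 (mm10). The first pair of intergenic stretches lies between H2A and H2B genes that were listed in all 10 libraries: Hist1h2ah/Hist1h2bk (chr13:22035569-22035868, plus strand, the first 300 of 301 bases) and Hist1h2ag/Hist1h2bj (chr13:22042945-22043213, plus strand). Capitals mark motif letters on either strand: TATAAA of the core promoter, the NF-Y element CCAAT, the octamer ATTTGCAT, GGTCCG of the H4 promoter element, the GATA letters TGATAA with their variant AGATAA, and the E2F-type letters TTTGGCGC or TTTCGCGC.
Hist1h2ah/Hist1h2bk: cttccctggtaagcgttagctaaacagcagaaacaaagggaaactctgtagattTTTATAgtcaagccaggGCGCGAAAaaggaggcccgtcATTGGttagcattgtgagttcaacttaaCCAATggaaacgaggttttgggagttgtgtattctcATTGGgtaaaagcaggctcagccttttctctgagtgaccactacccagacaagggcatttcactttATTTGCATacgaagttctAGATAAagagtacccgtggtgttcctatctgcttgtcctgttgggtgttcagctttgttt
Hist1h2ag/Hist1h2bj: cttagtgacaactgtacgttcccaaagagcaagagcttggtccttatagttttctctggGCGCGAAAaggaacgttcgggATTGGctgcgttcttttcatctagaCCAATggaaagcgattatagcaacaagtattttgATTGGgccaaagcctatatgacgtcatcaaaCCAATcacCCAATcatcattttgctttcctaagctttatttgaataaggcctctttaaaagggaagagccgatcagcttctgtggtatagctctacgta
The former held 3 CCAAT boxes, 1 octamer, 1 TATAAA, 1 GATA match and 1 E2F-type match. The latter held 5 CCAAT boxes and 1 E2F-type match.

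The next stretches lie between H2A and H2B genes that were in no list: Hist1h2bq/Hist1h2ao (chr13:21810198-21810464), its inverted copy Hist1h2ap/Hist1h2br (chr13:21833508-21833742) and the testis-type pair Hist1h2ba/Hist1h2aa (chr13:23934157-23934456, the first 300 of 305 bases), all on the plus strand and with the same capitals.
Hist1h2bq/Hist1h2ao: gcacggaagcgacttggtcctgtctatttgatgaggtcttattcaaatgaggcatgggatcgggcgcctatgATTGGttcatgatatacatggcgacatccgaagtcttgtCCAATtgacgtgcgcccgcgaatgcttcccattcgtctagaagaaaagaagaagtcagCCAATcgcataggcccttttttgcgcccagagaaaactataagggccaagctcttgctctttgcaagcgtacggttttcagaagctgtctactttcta
Hist1h2ap/Hist1h2br: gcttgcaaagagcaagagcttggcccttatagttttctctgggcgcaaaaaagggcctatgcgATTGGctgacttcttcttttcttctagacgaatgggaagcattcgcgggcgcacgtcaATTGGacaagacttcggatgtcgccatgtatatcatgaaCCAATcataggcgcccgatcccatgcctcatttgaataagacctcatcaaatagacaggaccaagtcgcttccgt
Hist1h2ba/Hist1h2aa: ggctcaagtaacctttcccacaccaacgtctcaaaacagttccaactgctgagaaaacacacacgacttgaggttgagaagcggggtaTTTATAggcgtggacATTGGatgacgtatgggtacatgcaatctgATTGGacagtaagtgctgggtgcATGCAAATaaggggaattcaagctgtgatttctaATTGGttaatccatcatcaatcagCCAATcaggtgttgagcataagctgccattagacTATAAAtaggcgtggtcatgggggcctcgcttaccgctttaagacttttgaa
Each of the first pair held 3 CCAAT boxes and no match to the other motifs. Read on the opposite strand, all 235 bases between Hist1h2ap and Hist1h2br lie unbroken within the 267 bases between Hist1h2bq and Hist1h2ao.

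For H4, the 250 bases before the start are shown for Hist4h4, which was in all 10 lists (chr6:136804416-136804665, minus strand), and for Hist1h4k, which was in none (chr13:21750506-21750755, minus strand). Both carry the GGTCCG letters, in capitals, and Hist1h4k also carries TATAAA.
Hist4h4: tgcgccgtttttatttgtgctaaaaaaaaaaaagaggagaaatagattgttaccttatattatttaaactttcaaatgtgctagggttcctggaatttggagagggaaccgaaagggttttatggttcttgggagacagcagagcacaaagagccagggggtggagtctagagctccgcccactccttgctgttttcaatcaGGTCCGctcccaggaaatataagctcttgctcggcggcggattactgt
Hist1h4k: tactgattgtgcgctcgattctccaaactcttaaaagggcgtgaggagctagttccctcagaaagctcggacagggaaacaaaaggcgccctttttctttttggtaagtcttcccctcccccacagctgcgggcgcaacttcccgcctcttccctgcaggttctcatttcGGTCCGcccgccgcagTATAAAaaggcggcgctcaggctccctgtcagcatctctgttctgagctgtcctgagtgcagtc

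With a summit counted for every start within 1 kb, histone gene starts were listed more often than the average gene, but their summits ranked lower. On average 35 ± 4.03 members (SD, n = 10 libraries) had a summit, which is 52.2% ± 6.01 of the 67, against 37.6% ± 1.99 of all protein-coding genes. In time order, replicate 1 first, the members listed numbered 32 and 36 (0 h), 36 and 37 (2 h), 30 and 41 (6 h), 39 and 37 (12 h), and 28 and 34 (24 h). The share of members exceeded that of all genes in each of the 10 libraries. It was closest at 24 h replicate 1, with 41.8% against 37.5%, and farthest apart at 12 h replicate 1, with 58.2% against 37.0%. Because neighbours share summits, the listed members stood on 20 to 31 distinct summits per library, on average 25.2 ± 3.39 (SD, n = 10). The excess itself, and not only its size, depended on this sharing. With each counted summit given to the member with the nearest start alone, shares by type were 46.2% (H4), 41.7% (H2B), 37.8% (H2A), 28.3% (H1) and 25.8% (H3). These lay on both sides of the 37.6% of all genes. As all genes were not recounted in this way, no excess can be stated for this count.

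**Figure D1:**
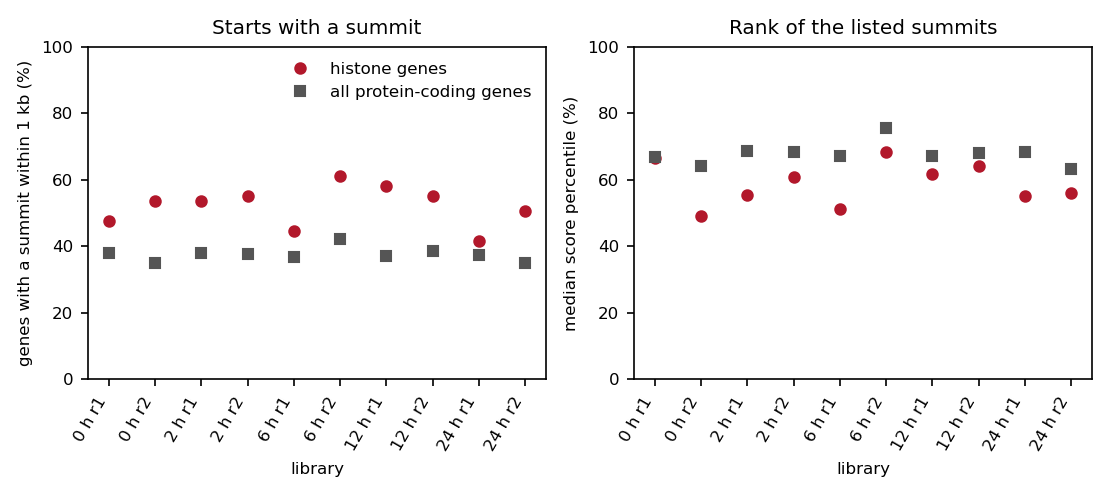
Left, percentage of genes with a summit within 1 kb of a start in each library for the 67 histone genes (red circles) and all 21853 protein-coding genes (grey squares). Right, median score percentile of the listed genes of each kind. The histone genes lie above all genes on the left in all 10 libraries and below them on the right, where the smallest difference was −0.285 points.

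The median percentile of listed members was 58.9 ± 6.43 (SD, n = 10) against 67.7 ± 3.31 for all listed genes, a difference of −8.84 ± 5.13 points with members lower in 10 of 10 libraries. The difference ran from −15.7 points at 6 h replicate 1 to −0.285 points at 0 h replicate 1. With each summit counted once, so that shared summits carry no extra weight, it was −7.97 ± 7.46 points and members were lower in 9 of 10 libraries. No p-value is attached to these summaries, since members share summits and were not drawn as independent units.

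Over the time course the number of listed members was 34 ± 2.83 before treatment, then 36.5 ± 0.707 (2 h), 35.5 ± 7.78 (6 h), 38 ± 1.41 (12 h) and 31 ± 4.24 (24 h), each as mean ± SD with n = 2. The 6 h libraries alone spanned 30 to 41, more than the range of the means over the 5 time points. With 2 libraries against 2, an exact permutation test (two-sided) cannot give a p below 0.333, and none was run.

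Across libraries, 15 members (22.4%) were in all 10 lists, 34 were in 1 to 9 lists and 18 (26.9%) were in none. Of all protein-coding genes, 26.4% were in all 10 lists and 55.5% in none, so fewer members than genes in general were never listed, while the share listed everywhere was slightly lower. The members were concentrated in the class between, with 34 of 67 against 3969 of 21853 genes. The 15 constant members were Hist2h2ab, Hist3h2a, Hist1h2ah and Hist1h2ag (H2A), Hist2h2bb, Hist1h2be, Hist1h2bh, Hist1h2bk and Hist1h2bj (H2B), Hist1h3e and Hist1h3f (H3), and Hist4h4, Hist2h4, Hist1h4a and Hist1h4c (H4). No H1 gene was in all 10, although the summits counted for Hist1h2be lay inside the H1 gene Hist1h1e in each list. By cluster, 10 of 54 Hist1, 3 of 10 Hist2, 1 of 2 Hist3 and the Hist4 gene were in all 10, and 16 Hist1, 1 Hist2 and 1 Hist3 gene were in none. The first Hist1 block had 9 of 23 genes in no list and the second 7 of 31.

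**Figure D2:**
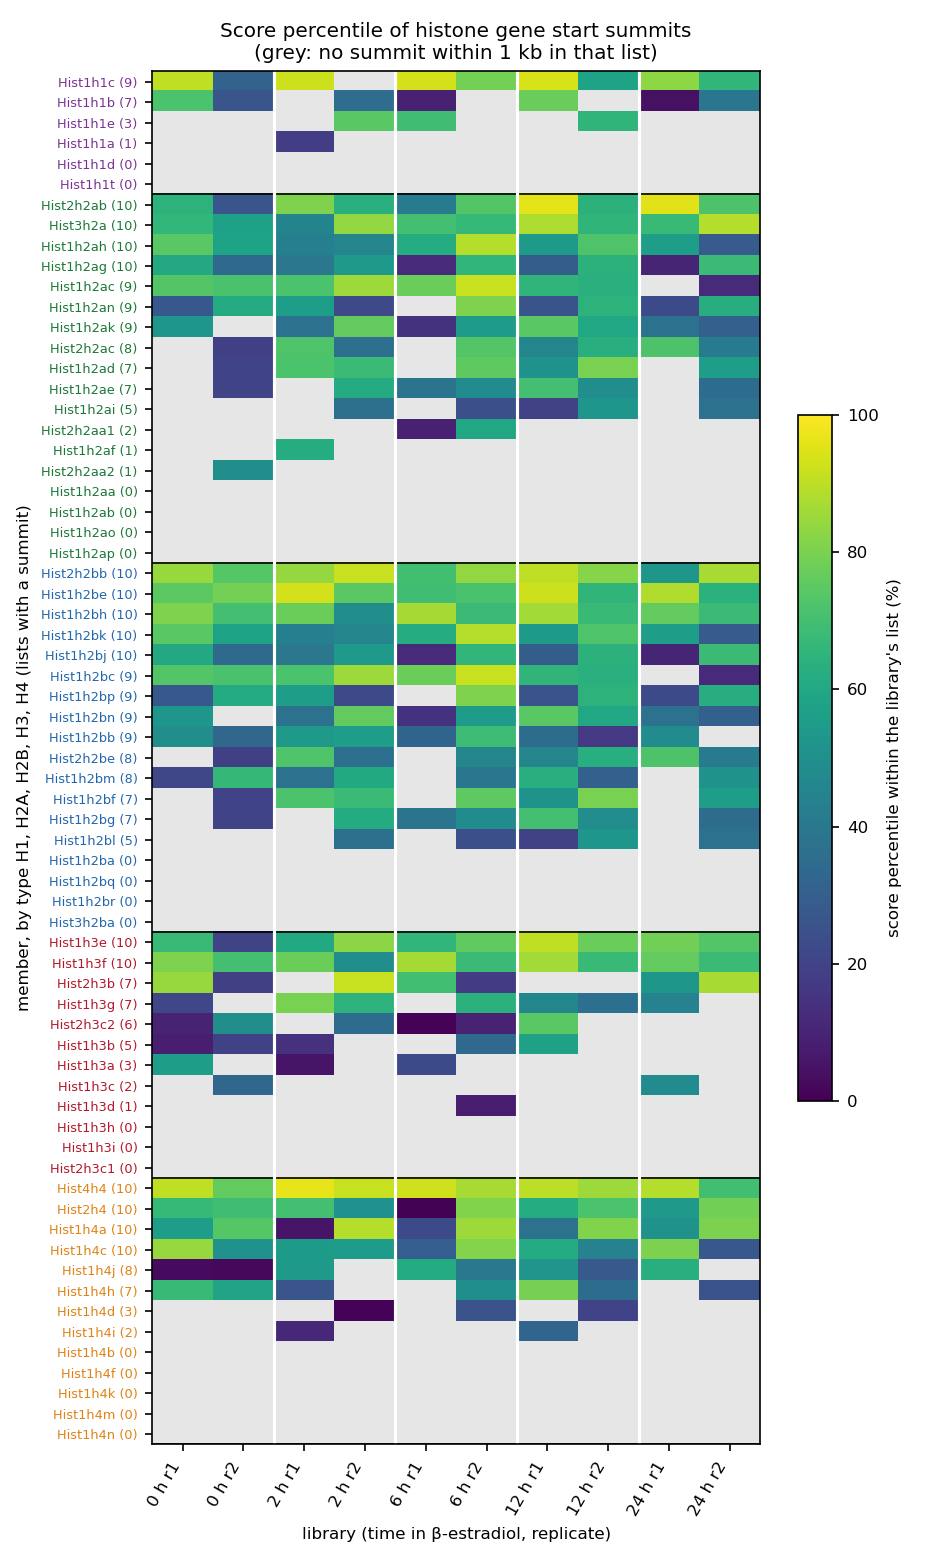
Score percentile of the strongest summit within 1 kb of each of the 67 starts (rows, grouped by histone type in the order H1, H2A, H2B, H3, H4, number of lists in brackets) in each of the 10 libraries (columns). Grey cells mark no summit; 15 rows are filled throughout and 18 are grey throughout, 5 of the latter H4 genes.

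The members also differed by histone type in how often and where they were listed. H2B genes were listed in 67.2% ± 11.6 of cases per library, H2A in 54.4% ± 10.1, H4 in 46.2% ± 7.25, H3 in 42.5% ± 11.4 and H1 in 33.3% ± 7.86 (SD, n = 10 libraries). H2B and H2A summits lay mainly upstream of the start, at a median of −123 and −98.5 bp, with 94.2% of 121 H2B and 85.7% of 98 H2A summits upstream. H3 summits fell into separate groups with a median of −84 bp, and 68.6% of 51 were upstream. H4 summits had a median of 95 bp downstream, with 63.3% of 60 inside the annotated gene. Of these 38, 10 lay in Hist4h4 and 9 in Hist2h4, which have longer annotated spans. None of the 20 H1 summits was upstream (median 854.5 bp downstream). A summit within 1 kb of more than 1 start was counted for each of these genes, and the order of the types depended on this. When each counted summit was given to the member with the nearest start alone, a choice made after seeing the data, H4 came first with 46.2% ± 7.25, before H2B with 41.7% ± 5.4, H2A with 37.8% ± 7.77, H1 with 28.3% ± 8.05 and H3 with 25.8% ± 12.1. The outermost summits counted lay 999 bp from the start of Hist1h1c, 997 bp from Hist2h2ac and 993 bp from Hist2h3b, and with windows of 500 bp and 2 kb, 10 and 22 members were in all 10 lists in place of 15.

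**Figure D3:**
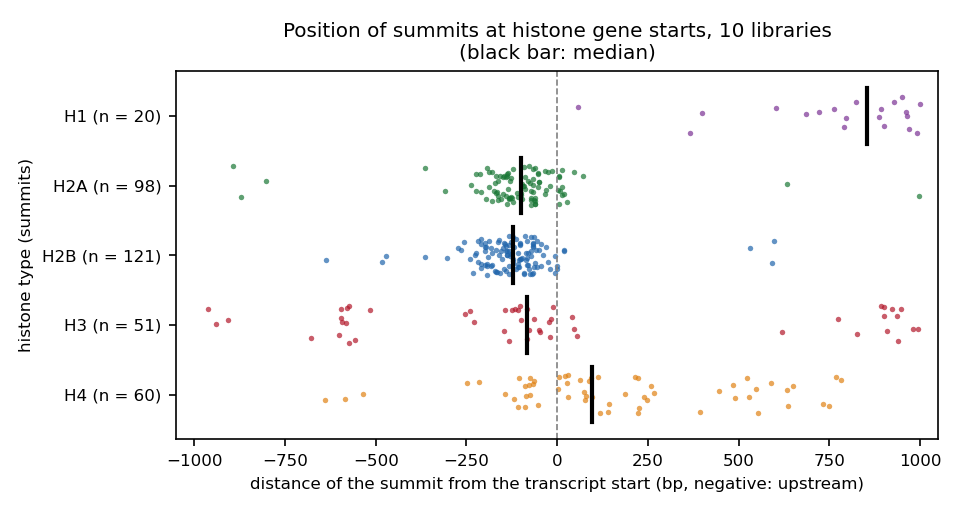
Distance in bp of every listed summit from the start of its gene (x axis, negative values upstream), by histone type, 10 libraries pooled; each point is 1 gene in 1 library and the black bar is the median. H2A and H2B points gather before the start, H4 points after it, and H1 points all after it, mostly toward the outer edge of the window.

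H1 genes encode the linker histones that bind DNA between nucleosomes. Hist1h1c was in 9 lists, with percentiles of 90.4 and 31.7 (0 h), 92.3 (2 h replicate 1), 93.7 and 79.1 (6 h), 94.0 and 57.9 (12 h), and 83.2 and 65.7 (24 h). Replicate 1 was the higher at each of the 4 time points at which both libraries listed it. Its summits lay 604 to 999 bp downstream of the start, within the gene, and so entered near the outer edge of the 1 kb window. Hist1h1b was in 7 lists with percentiles from 4.38 to 77.0 and summits 365 to 991 bp downstream, 5 of them past the end of the gene. Hist1h1e was in 3 lists on a summit shared with Hist1h2be, Hist1h1a in 1 list (2 h replicate 1, percentile 18.3), and Hist1h1d and the testis-type Hist1h1t in none. All 10 summits counted for Hist1h2be lay inside the Hist1h1e gene (chr13:23620629-23622558), in the other lists over 1 kb from its start. The Hist1h1d start used (chr13:23553262) had the lowest GC content among the members' promoter windows described below (30.7%) and no CCAAT box. With a 2 kb window Hist1h1d was listed in both 6 h libraries.

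Among H2A genes, which form the dimer partner of H2B, Hist2h2ab had percentiles of 64.7 and 26.5 (0 h), 80.6 and 63.4 (2 h), 41.3 and 73.4 (6 h), 95.7 and 64.2 (12 h), and 95.4 and 72.1 (24 h). Both 24 h values were above both 0 h values, and at 12 h the replicate 2 value lay between them. Hist3h2a ranged from 45.1 to 88.8 with a median of 67.1. Hist2h2ac was in 8 lists (median 54.2), Hist1h2af in 1 (2 h replicate 1, percentile 62.0), and Hist1h2ab, Hist1h2ao, Hist1h2ap and the testis-type Hist1h2aa in none. Hist2h2aa1 was in the 2 libraries of 6 h (percentiles 9.20 and 59.4) and Hist2h2aa2 in 0 h replicate 2 alone (49.3).

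Among H2B genes in all 10 lists, Hist1h2be, Hist1h2bh and Hist2h2bb had the narrowest ranks. Hist1h2be ranged from 63.9 to 93.3 (median 74.5, SD 10.8), Hist1h2bh from 49.5 to 86.5 (median 73.1, SD 10.9) and Hist2h2bb from 52.8 to 91.5 (median 84.1, SD 11.7). The summits counted for Hist1h2be lay inside the H1 gene Hist1h1e. Hist1h2bb was in 9 lists (median 48.1) and Hist2h2be in 8 (median 45.4), while Hist1h2bm was in 8 (median 45.2). Hist3h2ba, Hist1h2bq, Hist1h2br and the testis-type Hist1h2ba were in none.

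H2A and H2B genes were organised in divergent pairs: 13 pairs of members pointed away from each other with 175 to 659 bp (median 267 bp) between their starts, and 12 of these paired H2A with H2B. The remaining pair was Hist1h2bh with the H3 gene Hist1h3f. A summit was shared by both genes of a pair in 83 cases over the 10 libraries, and in 73 of these (88.0%) it lay between the starts. The Hist1h2ah/Hist1h2bk stretch printed above held the summit in all 10 lists, with percentiles of 74.3 and 58.1 (0 h), 43.3 and 45.5 (2 h), 61.8 and 88.8 (6 h), 54.6 and 72.4 (12 h), and 55.9 and 28.6 (24 h). The Hist1h2ag/Hist1h2bj stretch held it in 9 of the 10 lists with a summit, with a pair median of 46.7 and a range from 10.5 to 68.0. Both 24 h values of Hist1h2ah/Hist1h2bk were below both 0 h values, whereas those of Hist1h2ag/Hist1h2bj lay on either side.

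Further H2A-H2B pairs were listed less constantly. Hist1h2ac/Hist1h2bc had percentiles between 63.7 and 91.4 in all 8 libraries from 0 to 12 h. It was absent at 24 h replicate 1 and stood at 12.3 at 24 h replicate 2, below its other values. The pair was no loss by the rule used below, and how many of all genes show such a pattern was not counted. Hist1h2ak/Hist1h2bn and Hist1h2an/Hist1h2bp were in 9 lists (medians 52.6 and 55.6), and Hist1h2ae/Hist1h2bg and Hist1h2bf/Hist1h2ad in 7 (medians 48.4 and 68.2). Hist1h2bl/Hist1h2ai was in 5 lists with percentiles of 37.0 (2 h replicate 2), 24.3 (6 h replicate 2), 19.4 and 52.7 (12 h) and 37.2 (24 h replicate 2). In Hist2, Hist2h2ac/Hist2h2be shared a summit in 7 libraries. Members in a divergent pair were listed in 64.6% ± 14.1 of cases and members outside one in 44.4% ± 5.37 (SD, n = 10 libraries), and within H2A the shares were 61.7% ± 15.3 for the 12 paired and 40% ± 8.61 for the 6 unpaired genes. Within H2B the order was opposite, with 64.6% ± 14.1 for the 13 paired and 74.0% ± 9.66 for the 5 unpaired genes. The unpaired genes include Hist1h2be, counted on summits inside Hist1h1e.

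H3 and H4 form the core tetramer of the nucleosome. Hist1h3e was in all lists, with percentiles of 67.5 and 20.5 (0 h), 60.8 and 82.8 (2 h), 65.9 and 75.5 (6 h), 90.5 and 77.2 (12 h), and 78.8 and 73.4 (24 h). Both 12 h and both 24 h values were above both 0 h values, and 0 h replicate 2 was the lowest of the 10. Hist1h3f took its rank (median 73.1) from the summit near Hist1h2bh, at −678 to −558 bp from its own start. Hist2h3b was in 7 lists (17.6 to 91.5), in 5 of them on the summit at Hist2h2bb. Hist1h3g was in 7 lists (median 45.7), Hist2h3c2 in 6 (median 22.7), Hist1h3b in 5 (median 19.6), Hist1h3a in 3, Hist1h3c in 2 and Hist1h3d in 1, while Hist1h3h, Hist1h3i and Hist2h3c1 were in none.

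Hist4h4 had the highest median of all members, 89.5, with percentiles of 90.3 and 76.0 (0 h), 96.2 and 91.5 (2 h), 92.9 and 86.9 (6 h), 90.1 and 85.3 (12 h), and 88.8 and 69.6 (24 h). Replicate 1 exceeded replicate 2 at each time point. Both 2 h values were above both values of 0, 12 and 24 h and overlapped with those of 6 h. The ranges of 0, 6, 12 and 24 h overlapped. All 10 of its summits lay inside the gene, 75 to 267 bp after the start. Hist2h4 had a median of 68.2 with 1 value of 0.559 at 6 h replicate 1, and Hist1h4c ranged from 27.3 to 84.4. Hist1h4a, whose summits lay upstream in 9 of 10 lists, had percentiles of 55.6 and 73.6 (0 h), 5.67 and 88.9 (2 h), 22.3 and 85.3 (6 h), 37.3 and 80.9 (12 h), and 51.1 and 80.4 (24 h). Replicate 2 was the higher at all 5 time points, with a median of 80.9 against 37.3 in replicate 1, and no replicate 1 value reached the lowest replicate 2 value.

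The other H4 genes were listed in part or not at all. Hist1h4j was in 8 lists (median 46.1), Hist1h4h in 7 (median 49.8), Hist1h4d in 3 (at most 25.8) and Hist1h4i in 2 (at most 32.8). Hist1h4b, Hist1h4f, Hist1h4k, Hist1h4m and Hist1h4n were in none.

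Some ranks were ordered by replicate number at every time point, among members as among all genes. Of the 15 constant members, 1 (Hist1h4a) ranked higher in replicate 2 at all 5 time points and 3 (Hist4h4 and the pair Hist1h2bh and Hist1h3f on 1 summit) ranked higher in replicate 1 at all 5. Of all 5762 genes listed in all libraries, 9.86% did the former and 6.94% the latter. Among the 34 members in 1 to 9 lists, 19 (55.9%) were listed in more replicate 2 than replicate 1 libraries, against 42.7% of the corresponding genes, 12 leaned to replicate 1 and 3 were even. The part of replicate number in the results by time was not tested beyond the fit with replicate as a term.

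Whether β-estradiol changed the listing of these promoters was examined next. A member counted as gained if it appeared in both lists of a later time point but in no 0 h list, and as lost if the reverse held. At 2 h no member was gained or lost, against 0.636% and 0.352% of all genes. At 6 h 1 member was gained (Hist2h2aa1) and none lost, against 1.04% and 0.0412%. At 12 h Hist1h2bl and Hist1h2ai, which shared a summit in each library, were gained and Hist2h3b was lost, against 0.737% and 0.316%. At 24 h none was gained and Hist2h3c2 and Hist1h3b were lost, against 0.444% and 0.545%. Hist1h3b had percentiles of 8.57 and 19.6 at 0 h and was not listed at 24 h, and Hist2h3c2 had 9.72 and 49.3 at 0 h. Hist2h3b was listed again at 24 h, with 52.8 and 86.9. The summits behind a call were not always at the same place. From the start of Hist1h2bl the 12 h summits lay at 593 bp (replicate 1) and −226 bp (replicate 2), and at 0 h those of Hist2h3b lay at 937 and 42 bp and those of Hist2h3c2 at 891 and −517 bp. The summits of Hist2h2aa1 at 6 h (−363 and −224 bp) and of Hist1h3b at 0 h (−49 and 45 bp) lay closer together. The 6 calls carry no test. Without 1 library the rule is looser and can only add calls, and leaving out replicate 1 or 2, respectively, gave 23 and 22 calls for the 0 h libraries, 14 and 12 for 2 h, 11 and 12 for 6 h, 11 and 7 for 12 h, and 10 and 10 for 24 h. Which members were called changed with the processing. Of the 6 calls, 2 (Hist2h2aa1 and Hist1h3b) were also made with a window of 500 bp, 4 with 2 kb, 1 (Hist2h3b) with lists cut to equal size and 0 with a score of at least 5.

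A rank could be fitted for the 15 members listed in all 10 libraries. Ranks were turned into normal scores, the position the percentile would take in a standard normal distribution, and each time point was compared with 0 h by limma across all 5762 genes listed in every library. No member passed a Benjamini-Hochberg adjusted p of 0.05 at any time point, and neither did any other gene (0% at each). At an unadjusted p under 0.05 the fit called 2.90%, 3.94%, 2.66% and 3.26% of all genes at 2, 6, 12 and 24 h, and 0, 0, 1 and 1 members. The 1 at 12 h was Hist1h3e, higher by 1.21 ± 0.50 (SE) normal score units (limma adjusted p = 0.998). The 1 at 24 h was Hist2h2ab, higher by 1.26 ± 0.57 (limma adjusted p = 0.9996). Over all genes the median difference was 0.11, 0.21, 0.09 and −0.01, and over the members −0.01, 0.09, 0.07 and −0.11, with 6, 8, 8 and 5 of 15 members above 0. The sign of the member median at 6 and 12 h depended on the scaling: it was −0.20 and −0.05 with centred log2 scores, and −0.30 and −0.05 with ranks among the fitted genes, with 5 and 6 of 15 members above 0 in both. The largest drop among members was that of Hist2h4 at 6 h, whose percentiles there were 0.559 and 81.0. The 15 members stood on 12 separately fitted summits, and merging shared summits left 0 members called. With 2 libraries per time point the standard errors were 0.45 to 0.77 normal score units, which limits the size of change that could be detected.

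**Figure D4:**
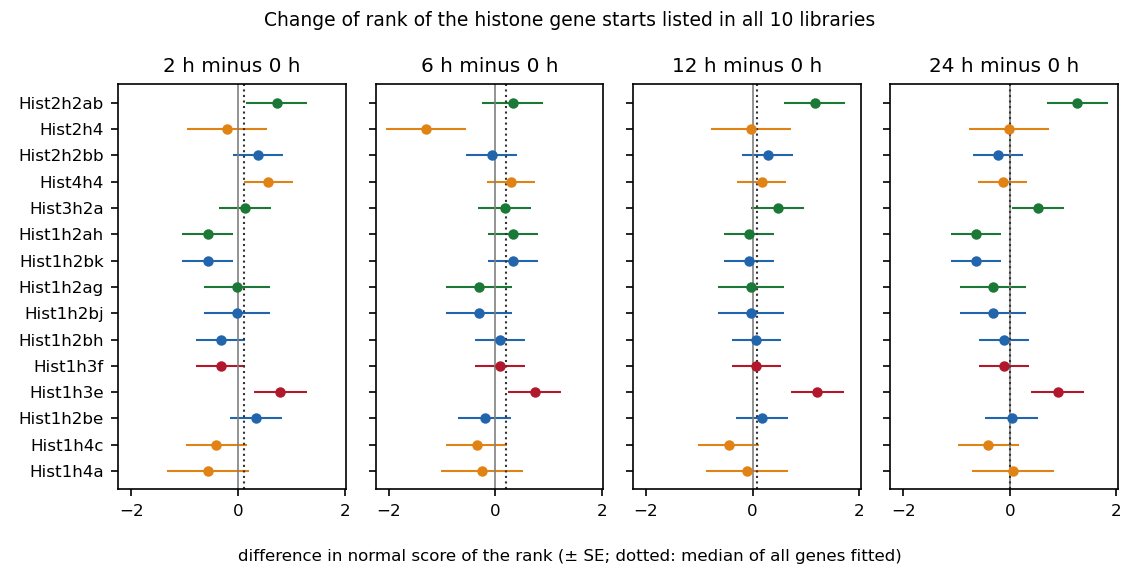
Difference in normal score of the rank from 0 h at 2, 6, 12 and 24 h for the 15 members listed in all 10 libraries (points, coloured by type, bars ± SE from limma); the dotted line is the median of all 5762 genes fitted. No difference passed the adjusted threshold; Hist1h3e and Hist2h2ab lie farthest to the right at 12 and 24 h.

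Sequence that occurs more than once in the genome coincided with several of the missing starts. The authors kept reads that matched the genome at exactly 1 place, so for every start the share of 75-base words within 250 bp that recur in the mouse chromosomes was counted, on both strands. The share was over 50% at 10 members (14.9%) and at 4.97% of all genes. In Hist1 these were Hist1h2bq, Hist1h2ao, Hist1h4m, Hist1h4n, Hist1h2ap and Hist1h2br, which make up the inverted duplication whose intergenic stretches are printed above. Their shares were 82.4% to 100% and all 6 were in no list. In Hist2 they were Hist2h3c2, Hist2h2aa2, Hist2h2aa1 and Hist2h3c1, with 72.8% to 82.4%, in 6, 1, 2 and 0 lists. Of all genes with over 50% repeated words, 96.6% were in no list, against 53.3% of the others.

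The 57 members with less repeated starts comprised all 15 in every list and 11 in none (19.3%). These 11 were Hist3h2ba, Hist1h3h, Hist1h4k, Hist1h3i, Hist1h4f, Hist1h1d, Hist1h1t, Hist1h2ab, Hist1h4b, Hist1h2ba and Hist1h2aa. With a 2 kb window, Hist1h1d was listed in both 6 h libraries and Hist1h2ab in both 0 h libraries. In each of the 11, none of the 75-base words centred in the 250 bp before the start recurred, while up to 85.6% of those in the 250 bp after it did. Over the members outside the duplications, the coding side was thus often repeated where the upstream side was not. The part of repeated sequence in the missing summits and in the position of listed ones was not tested.

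**Figure D5:**
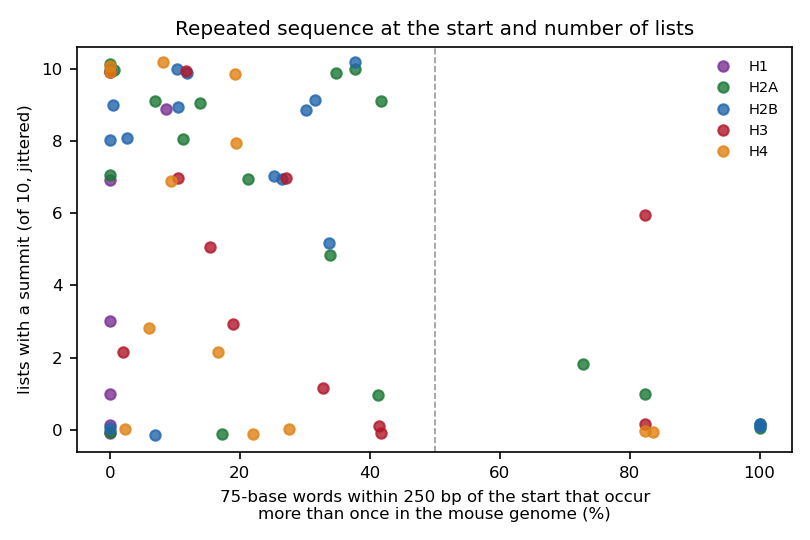
Percentage of 75-base words within 250 bp of the start that occur more than once in the mouse genome (x axis) against the number of the 10 lists with a summit (y axis, jittered) for the 67 members, coloured by type. To the right of the dashed line at 50% stand 10 members, 7 of them in no list and none in more than 6.

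Promoter motifs differed between histone types. Windows from 250 bp before to 50 bp after the start were searched on both strands in all 21853 genes. CCAAT was found at all 18 H2A and all 18 H2B starts, at 11 of 12 H3 and 5 of 6 H1 starts and at 4 of 13 H4 starts, against 39.0% of all genes. The octamer ATTTGCAT was found at 7 H2A and 8 H2B starts and at no other member, against 1.60% of all genes. GGTCCG, letters found in the H4 subtype element, stood at 12 of 13 H4 starts (Hist1h4a was the exception), 2 H3 and 1 H2B start, against 9.77%. TATAAA was present at 37 of 67 members (55.2%) against 12.6% of all genes, and the E2F-type letters at 5 H2A and 4 H2B starts against 1.04%. The GATA letters stood at 14 members (20.9%), 6 of them H3 genes, against 16.6% of all genes.

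By number of lists, the shares among the 15 members in all 10 lists, the 34 in 1 to 9 and the 18 in none were 86.7%, 91.2% and 66.7% for CCAAT, 26.7%, 23.5% and 16.7% for the octamer, and 33.3%, 11.8% and 33.3% for GGTCCG. They were 26.7%, 67.6% and 55.6% for TATAAA, 26.7%, 14.7% and 0% for the E2F-type letters, and 26.7%, 23.5% and 11.1% for the GATA letters. These classes include shared stretches, so these shares are a description, and a match does not show that a factor was bound. Member windows had a median GC content of 45.3% against 55.3% of all genes, and that of Hist1h4a was 59.3%.

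The other genes of the histone supply were more often in all 10 lists than the members (22.4%) or all protein-coding genes (26.4%). Of the replication-independent histone genes, 6 of 11 were in all 10 lists: H2afz, H2afv, H2afx, H3f3a, H3f3b and Cenpa, with medians of 93.6, 97.3, 95.2, 77.3, 92.7 and 61.1. H2afy was in 8 lists, H2afj in 4, and H2afy2, H1f0 and H1fx in none. The share in none, 27.3%, was close to the 26.9% of the members, against 55.5% of all protein-coding genes. Of 19 genes for histone gene transcription and mRNA processing, 13 (68.4%) were in all 10 lists and none was in 0 lists. The highest medians were 98.8 for Hinfp, 96.8 for Casp8ap2, 96.7 for Npat, 93.1 for Zfp473, 89.6 for Pou2f1 and 88.2 for Slbp. The lowest were 17.5 for Ncbp1 (10 lists), 23.6 for Srrt (7 lists) and 33.8 for Cpsf2 (4 lists). The median over the 19 genes was 72.4, against 61.6 over all listed protein-coding genes. Of 9 histone chaperone genes 8 (88.9%) were in all 10 lists, with medians from 50.9 for Nasp to 99.2 for Asf1b. Asf1a was in 9 lists with a median of 55.9. No gene of these lists passed the adjusted threshold of the fit, as no gene did.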

How the data were processed

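ATAC-seq libraries were analysed from 10 deposited summit lists (2 libraries at each of 0, 2, 6, 12 and 24 h), grouped by sample title. Per the study's methods and processing notes, the authors aligned reads to mm10, kept uniquely aligned reads and ran MACS2, with model building switched off, on each library alone. Bowtie2 is the aligner in the methods and Bowtie 1.0.0 in the notes, and no Tn5 shift is stated, so a summit's position is uncertain by up to about a fragment. The deposited score is −log10 of the MACS q-value, with a lowest value of 1.30 in the lists. It rises with depth, which is unknown, so scores were compared as ranks within a list and no counting intervals can be given. Mitochondrial peaks were dropped, the nuclear ones (autosomes 1 to 19, X, Y) were used, and no column was left out.

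Starts were those of protein-coding transcripts in GENCODE M21. Of several summits within 1 kb the highest-scoring one was taken, and its percentile is the share of its list with a lower score. Ranks were fitted with limma 3.58.1 (R 4.3.3), time as the factor, for genes listed in all 10 libraries, with Benjamini-Hochberg adjustment over all genes fitted in each contrast. Same-numbered libraries deviated together from their time point mean (Pearson r across genes 0.175 to 0.331 over the 10 pairs of time points). The numbers were therefore treated as pairing the libraries in a second fit, with replicate number as a term. The differences, standard errors and p-values given come from fits without this term. That pairing comes from the data, not from the labels. Counts, medians and motif shares carry no test. Repeats were counted over words of 75 bases, after the sequencing kit named by the study, and the length of the aligned reads themselves is not given in the sources used here. Tables used Python 3.11.15 and numpy 2.4.6. The gene table, the repeat count and the fit were tested on simulated data.

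Members and gene lists were chosen with earlier results of these data known. Named with values were all members of Hist2, Hist3 and Hist4, the Hist1 members with the 6 highest and 6 lowest medians among those in all 10 lists (here all 10 such members), every member in 1 to 9 lists or gained or lost, and by name every member in no list. Alternatives were windows of 500 bp and 2 kb, lists of equal size, a score of at least 5, every transcript start, other scalings of the rank and leaving out each library.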

Additional observations from a re-analysis of the deposited data

How the results depend on the processing

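Over windows of 500 bp and 2 kb, equal lists, a score of at least 5 and every transcript start, the mean number of members listed per library stayed within 1.5 times the reported 35, from 27.7 to 42.6. Members in all 10 lists numbered 10 with 500 bp, 22 with 2 kb, 11 with equal lists and 6 with a score of at least 5, against 15, and 15 to 17 were in all remaining lists with a library left out. Members in no list numbered 13 to 23 over these settings and 18 to 20 with a library left out. Of alternatives chosen after seeing the data, leaving out the 10 members with largely repeated starts gave 15 and 11, and giving each counted summit to the member with the nearest start gave 10 and 25.

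Gained and lost members together numbered 6. They were 5 with 500 bp, 7 with 2 kb, 6 with equal lists and 20 with a score of at least 5, which removes weak summits and raises gains at 2 h from 0 to 5 and at 12 h from 2 to 7. Of the 6 calls, 2, 4, 1 and 0 were also made under these settings, in that order. With a library left out they ranged from 7 to 23, a rise built into the looser rule. In the fit, 0 members were called under every setting, including the paired fit with a replicate block, 0 again, log2 scores, ranks among fitted genes (chosen after seeing the data), merged summits and each library left out, where the lone library of a time point is assumed to vary like the rest. The replicate block changed no call. At an unadjusted p under 0.05 (limma) it gave 262, 391, 250 and 305 genes at 2, 6, 12 and 24 h. The main fit gave 167, 227, 153 and 188. Of the members, the block gave 0, 0, 2 and 1 and the main fit 0, 0, 1 and 1. When genes listed in at least 5 libraries were fitted, with missing summits at the lowest rank, 8, 7, 0 and 11 of 8624 genes passed at 2, 6, 12 and 24 h, none of the 39 members fitted, whose smallest adjusted p at 24 h was 0.813 (limma). The difference in median percentile stayed between −11.3 and −7.97 points. Without read counts, a summit that was not called cannot be told from one below the calling threshold.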

Other observations

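Histone pseudogenes of the same naming series were also within 1 kb of listed summits. Hist3h2bb-ps, a processed pseudogene beside Hist3h2a, was in 10 lists, with the same median percentile of 67.1 as Hist3h2a. Hist1h2aj, an unprocessed pseudogene beside Hist1h2bm, was in 8 lists, as was Hist1h2bm, and Hist1h2al, which lies outside the Hist1 span at chr13:51202727-51203065, was in 2.

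Between the first and the last Hist1 start lie 49 other protein-coding genes. Of these, 36 are vomeronasal or olfactory receptor genes, and none of them was in any list. Of the remaining 13, the zinc finger gene Zfp322a was in all 10 lists (median percentile 79.4), 6 were in 1 to 5 lists and 6, among them Hfe, were in none. The Hist1 span held 29 to 63 summits per library, of which 16 to 28 were within 1 kb of a member's start, so in every library some summits of the span lay away from the histone genes.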
